A study of Gallus gallus with 4 samples.

Results

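Wide H3K9me3 domains of chicken embryonic stem cells (ESCs) that were also marked in cultured chicken primordial germ cells (cPGCs) numbered 802, of 1022 ESC domains at least 25 kb wide and 24491 ESC domains in all. They were chosen by 2 values of the domain lists, namely an ESC width of at least 25000 bp and at least 50% of the bases inside cPGC domains of the same chromosome, and they are called wide shared domains here. The remaining 220 wide ESC domains, with under 50% in cPGC domains, are the other wide ESC domains. Because width and cPGC coverage made the choice, everything measured on cPGC coverage of these regions is a description and carries no test. The domains that met the rule made up 78.5% of the wide ESC domains, against a background of 57.4% among ESC domains of every width.

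The groups were primordial germ cells, the precursors of sperm and eggs, kept in culture, and embryonic stem cells, cultured derivatives of the early chicken embryo. Formaldehyde-fixed, sonicated chromatin of each was immunoprecipitated with an antibody against H3K9me3 (Abcam ab8898) and sequenced beside an input sample that received no antibody. Each cell type had 1 immunoprecipitated and 1 input library, so no value has a replicate error, no p-value is given, and the cell type cannot be told apart from the library. The lists hold positions on 30 autosomes of galGal5 without a count, score or signal, and the depth behind them is unknown. The Wilson 95% intervals given for shares of domains cover counting only, and neighbouring domains are not independent.

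H3K9me3, the trimethylation of lysine 9 on histone H3, is a repressive mark of heterochromatin. It is written by methyltransferases of the SUV39H and SETDB families and bound by HP1 proteins, which can recruit further methyltransferase, so that the mark can spread along neighbouring nucleosomes into broad domains. Such domains are known for silent genes of other lineages, for gene-poor stretches and for repeated sequences. An island caller turns this continuous signal into intervals, and a short stretch of weak signal or of sequence where reads cannot be placed uniquely splits an interval into separate domains.

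The wide shared domains held 30217500 bp, of which 26973900 bp (89.3%) lay in cPGC domains. The same share was 74.5% for the bases of all wide ESC domains and 61.7% for the bases of all ESC domains. The wide shared domains were 3.27% of the ESC domains by number, yet held 14.4% of the ESC domain bases and 20.8% of the 129699900 bp marked in both lists. Read from the cPGC side, a smaller share of wide domains reached 50% than the 78.5% among wide ESC domains. Of 3106 cPGC domains at least 25 kb wide, 1383 (44.5%, interval 42.8 to 46.3%) had 50% or more in ESC domains. The lists differ in extent, ESC domains covering 22.5% of the length considered and cPGC domains 34.2%. The part of this difference in the smaller share was not tested.

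Most wide shared domains lay far above the 50% limit. The median share of a domain inside cPGC domains was 93.8% (quartiles 83.3% and 100%), with 676 domains (84.3%) at 75% or more and 501 (62.5%) at 90% or more, and only 49 between 50 and 60%. Among the other wide ESC domains the median was 11.9% (quartiles 0% and 33.1%), and 81 of the 220 had no base in a cPGC domain. Wide ESC domains thus gathered near full coverage, with a smaller group near none.

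**Figure D1:**
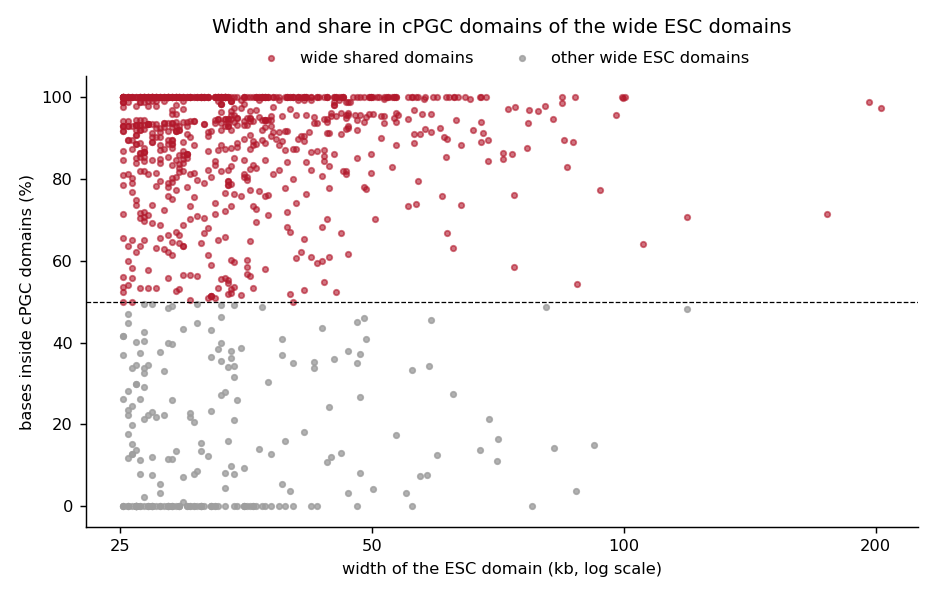
The share of each wide ESC domain that lies in cPGC domains (vertical axis, %) is plotted against the ESC domain's width (horizontal axis, kb, log scale), with wide shared domains and other wide ESC domains in separate colours. The points crowd at the top, where 501 of the 802 wide shared domains reach 90% or more.

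At the limits of the rule, the choice turned on 1 or 2 windows of 300 bp. Just inside 50% were domains on chromosome 7 (36024001 to 36064200, 40200 bp) and chromosome 1 (5944201 to 5970000, 25800 bp), each with 50% of its bases in cPGC domains. Just outside were domains on chromosome 5 (50841601 to 50872500, 30900 bp, 49.5%) and chromosome 11 (16065301 to 16092600, 27300 bp, 49.5%). By width, the narrowest inside measured 25200 bp, among them 23940601 to 23965800 (98.8% in cPGC domains) and 44985901 to 45011100 (100%), both on chromosome 1. The widest ones left out measured 24900 bp, among them 48651301 to 48676200 (92.8%) and 72663301 to 72688200 (78.3%), also on chromosome 1.

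Widths of the wide shared domains ranged between 25200 and 202800 bp, with a median of 33000 bp (quartiles 28200 and 41400 bp), against a median of 30900 bp in the other wide ESC domains. The share of ESC domains that met the 50% limit was larger in wider classes. It was 47.5% below 5 kb, 58.7% at 5 to 10 kb, 66.1% at 10 to 15 kb and 71.1% at 15 to 25 kb. Above the width limit it was 75.2% at 25 to 30 kb (n = 395), 78.2% at 30 to 40 kb (n = 358), 84.2% at 40 to 50 kb (n = 146) and 82.9% at 50 kb or more (n = 123). ESC domains with no cPGC base at all were 48.1% of those below 5 kb and 1.63% of those of 50 kb or more, where a longer interval also has more room to meet a cPGC domain by position.

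The wide shared domains lay on 29 of the 30 chromosomes. Chromosome 1 held 240 of them (29.9%), chromosome 2 held 115 and chromosome 3 held 90, which together made 445 (55.5%). These 3 chromosomes held 54.4% of all ESC domains, 49.1% of wide ESC domains and 49.0% of the length considered, so that the share was close to that of ESC domains of every width. There 88.6% of wide ESC domains met the rule, against 68.7% on the other chromosomes. By length, however, chromosome 1 did not lead: it had 1.22 wide shared domains per Mb, whereas the small chromosomes 33, 21, 17 and 24 had 2.49, 2.34, 1.92 and 1.91 per Mb. Chromosome 15 was at the low end with 0.314 per Mb, and the value over all chromosomes was 0.860 per Mb.

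The chromosomes also differed in how many of their wide ESC domains met the rule. All 16 did so on chromosome 21, all 8 on chromosome 26 and all 4 on chromosome 33, as did 240 of 265 (90.6%) on chromosome 1 and 21 of 24 (87.5%) on chromosome 17. Lower shares were found on chromosome 15 (4 of 10), chromosome 7 (20 of 39), chromosome 8 (20 of 35) and chromosome 10 (15 of 26). Chromosome 27 (7 of 12), chromosome 9 (15 of 25), chromosome 11 (12 of 20) and chromosome 4 (47 of 77) were low too. The extent of the cPGC list itself differed between chromosomes, and its part in these shares was not tested. cPGC domains covered 51.3% of chromosome 1 but 17.6% of chromosome 7 and 15.4% of chromosome 10, and the cPGC bases were 1.89, 0.865 and 0.797 times the ESC bases on these 3 chromosomes.

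On each of the 29 chromosomes wide ESC bases were more often in cPGC domains than the chromosome as a whole. On chromosome 1 85.5% of wide ESC bases lay in cPGC domains, against 51.3% of its length. The same comparison gave 90.4% against 28.8% on chromosome 21, 58.0% against 17.6% on chromosome 7, 53.9% against 15.4% on chromosome 10 and 48.2% against 26.9% on chromosome 27. Chromosomes 1 to 3 together gave 82.5% against 46.0%, and chromosomes 4 to 33 gave 67.2% against 22.9%. The part of cPGC extent in these overlaps was not tested.

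**Figure D2:**
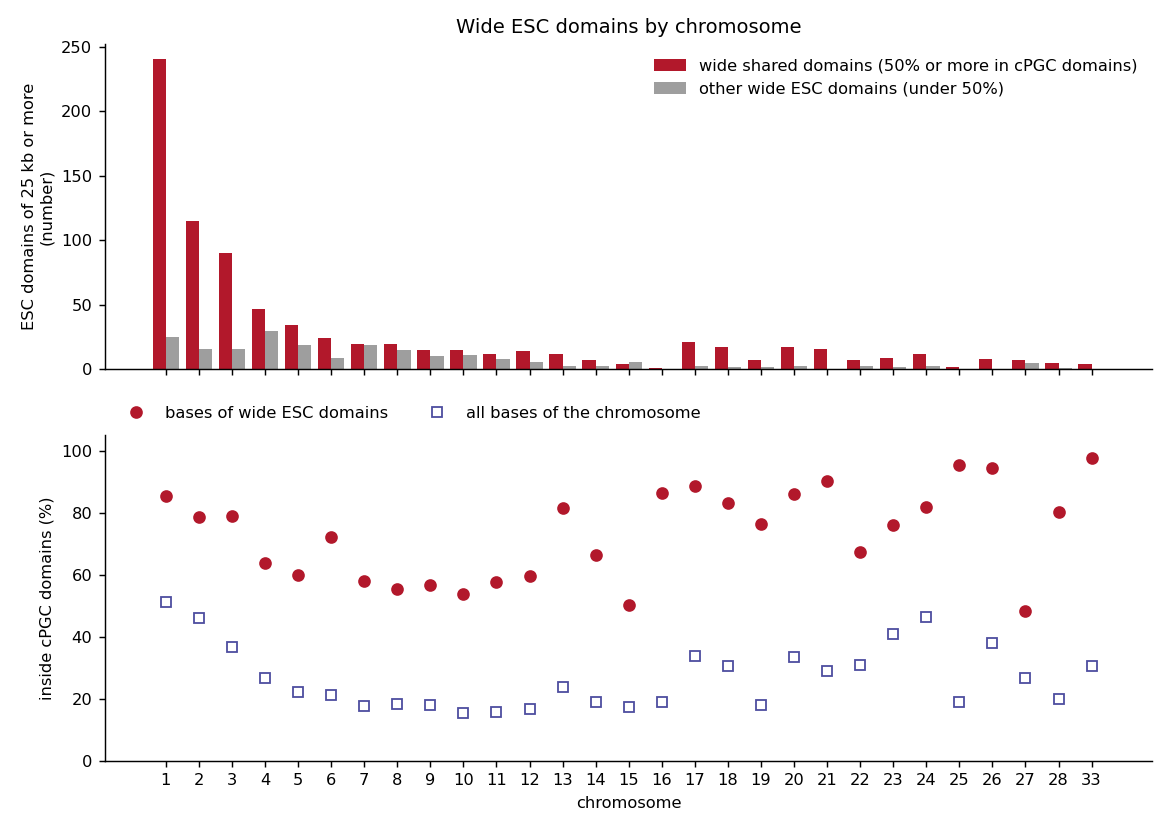
The upper panel counts wide ESC domains on each chromosome (horizontal axis) as wide shared domains and other wide ESC domains, and the lower panel gives the share of wide ESC bases in cPGC domains beside the share of the chromosome's length in cPGC domains (both in %). Chromosome 1 has 240 wide shared domains, and on chromosome 21 the 90.4% of wide ESC bases stands far above the 28.8% of the length.

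Wide shared domains were more frequent near chromosome ends. The outer 10% at either end of each chromosome, 20% of the length in all, held 240 of them (29.9%), against 25.5% of the other wide ESC domains and 22.2% of all ESC domains. Within 5 Mb of an end lay 316 (39.4%), against 36.4% of the other wide ESC domains, 25.7% of all ESC domains and 25.1% of the length. Small chromosomes lie wholly within 5 Mb of an end, among them 33, 21 and 24, which were dense in wide shared domains. The count within 5 Mb thus mixes chromosome size with position. Wide ESC domains on both sides of the 50% limit thus lay near ends more often than ESC domains of every width, a difference that was not tested.

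Wide shared domains lay close together along the chromosomes. The median distance to the next one was 80400 bp, 433 (54.0%) had another within 100 kb and 636 (79.3%) had another within 500 kb. Among all 1022 wide ESC domains the median distance was 85500 bp, 52.7% had another within 100 kb and 79.9% within 500 kb, so the closeness was not particular to the shared ones. Linking neighbours up to 500 kb apart gave 327 runs, of which 166 were single domains and 33 held at least 5 domains each, with 305 (38.0%) of the 802. A wide ESC domain of either kind lay within 100 kb of 457 wide shared domains (57.0%), against 82 of the other wide ESC domains (37.3%). Within 500 kb the shares were 83.5% and 66.8%. Only 37 of those other domains (16.8%) had a wide shared domain within 100 kb, while 55 had another of their own kind, although these are fewer.

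The largest run covered 4142700 bp of chromosome 1 (148217101 to 152359800) and held 47 wide shared domains and no other wide ESC domain. cPGC domains covered 85.5% of this stretch and ESC domains 77.5%, so that the list of each cell type filled most of it. The cPGC coverage of a single wide shared domain of the run was never under 66.3%, with a median of 93.7%. There were 147 cPGC and 171 ESC domains in the stretch, and after joining domains 3000 bp or less apart 56 and 80 remained. Many of the gaps were thus short, but not all, the widest measuring 32100 bp in each list. Of the 47 wide shared domains, 12 lay whole in 1 cPGC domain and 27 were met by 2 or more.

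The second run covered 4088700 bp of the same chromosome (157274701 to 161363400) and held 36 wide shared domains, among them the widest of all, again with no other wide ESC domain. cPGC domains covered 79.9% and ESC domains 68.8% of it. These runs contained 83 wide shared domains, 10.3% of all and 34.6% of those on chromosome 1. The third run, at the start of chromosome 2 (1545301 to 4493400, 2948100 bp), held 17, with cPGC coverage of 69.0% and ESC coverage of 52.2%. The cPGC bases were 1.10, 1.16 and 1.32 times the ESC bases in the 3 runs, against 1.89 and 1.98 times on chromosomes 1 and 2 as wholes. ESC domains filled so much of each run that even full cPGC coverage would have left its ratio below that of its chromosome. The lower ratios therefore do not show a smaller cPGC excess there. Without the 83 domains of the 2 largest runs, chromosomes 1 to 3 held 50.3% of the remaining 719.

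**Figure D3:**
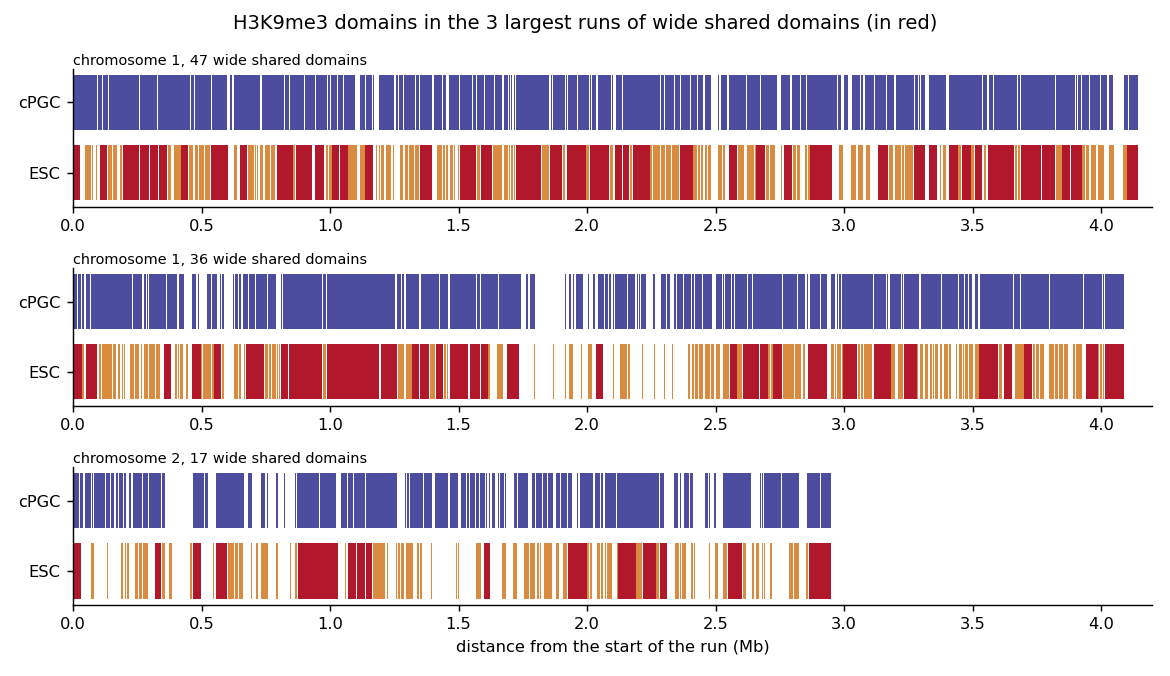
Positions of cPGC domains (upper track) and ESC domains (lower track, wide shared domains in red) are drawn to scale along the 3 largest runs, with distance from the start of the run on the horizontal axis (Mb). In the first run both tracks are nearly filled, at 85.5% in cPGCs and 77.5% in ESCs.

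To see how far the overlap followed from the neighbourhood, the same intervals were moved by fixed distances to both sides and their cPGC coverage was measured again. In place, wide shared domains were 89.3% covered, a value that the rule holds up by construction. Displaced by 100 kb they were 56.3% covered by cPGC domains, by 250 kb 47.3%, by 500 kb 45.0%, by 1 Mb 45.7%, by 2 Mb 41.9% and by 5 Mb 40.2%. Their chromosomes, weighted by the bases of wide shared domains on each, were 37.0% covered. Positions past a chromosome end were left out, so 1589 were kept at 100 kb, 1447 at 2 Mb and 1233 at 5 Mb. Short chromosomes lose most of them, so the far values and the chromosome value rest on unlike sets. Positions around wide shared domains were richer in cPGC domains than their chromosomes most clearly at 100 kb, where nearly all were kept.

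All 1022 wide ESC domains, which were not chosen on cPGC coverage, gave 74.5% in place, 50.3% at 100 kb, 42.4% at 1 Mb and 37.1% at 5 Mb, against 35.1% for their chromosomes. Here too fewer positions were kept farther out, 2025 at 100 kb and 1587 at 5 Mb. The in-place value of this unselected set exceeded each displaced one. The other wide ESC domains gave 17.1% in place, a value that the rule holds down by construction. They gave 27.0% at 100 kb and 29.3% at 1 Mb, against 27.7% for their chromosomes. ESC coverage was raised around the wide shared domains too, at 31.8% at 1 Mb, against 23.7% for the chromosomes. Without the domains of the 2 largest runs, the values at 1 Mb were 41.7% for cPGC domains and 27.9% for ESC domains. The chromosome values above are weighted over the full set of wide shared domains and are not given for this smaller set.

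The flanks of each domain showed the same neighbourhood in finer steps. Within 30 kb of a wide shared domain, cPGC domains covered 66.2% of the bases and ESC domains 46.6%. Between 30 and 100 kb away the values were 57.4% in cPGCs and 46.2% in ESCs, and between 100 and 500 kb 47.4% in cPGCs and 35.9% in ESCs. The ratio of cPGC to ESC coverage was 1.42, 1.24 and 1.32 in these 3 bands, with no steady trend. Each was below the 1.52 of the 2 lists over all chromosomes, so a higher cPGC coverage is not particular to these flanks. Around the other wide ESC domains the order was reversed within 30 kb, with 19.2% in cPGC domains and 38.1% in ESC domains. It was reversed between 30 and 100 kb too, with 25.9% in cPGC domains and 37.2% in ESC domains. Between 100 and 500 kb the values there were close to even (29.9% and 27.9%), but this band holds a crossing. At 150 to 200 kb cPGC coverage was still the lower (28.1% against 30.3%), and at 300 to 500 kb it was the higher (30.4% against 25.2%). The sets were split on cPGC coverage, and cPGC domains over wide shared domains often ran on into the flanks. Near the ends, the contrast between the sets thus follows in part from the choice. The band next to the domains includes the first 5 kb outside an end, where ESC coverage was 24.3% for wide shared domains and 19.1% for the others. The caller leaves at least 1800 bp between domains of the same list. The first 1800 bp outside an ESC end thus hold no ESC domain by construction, a limit that cPGC domains there do not have. How far this lowers the values was not tested. At 5 to 10 kb from wide shared domains coverage was 69.0% in cPGCs and 51.7% in ESCs.

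**Figure D4:**
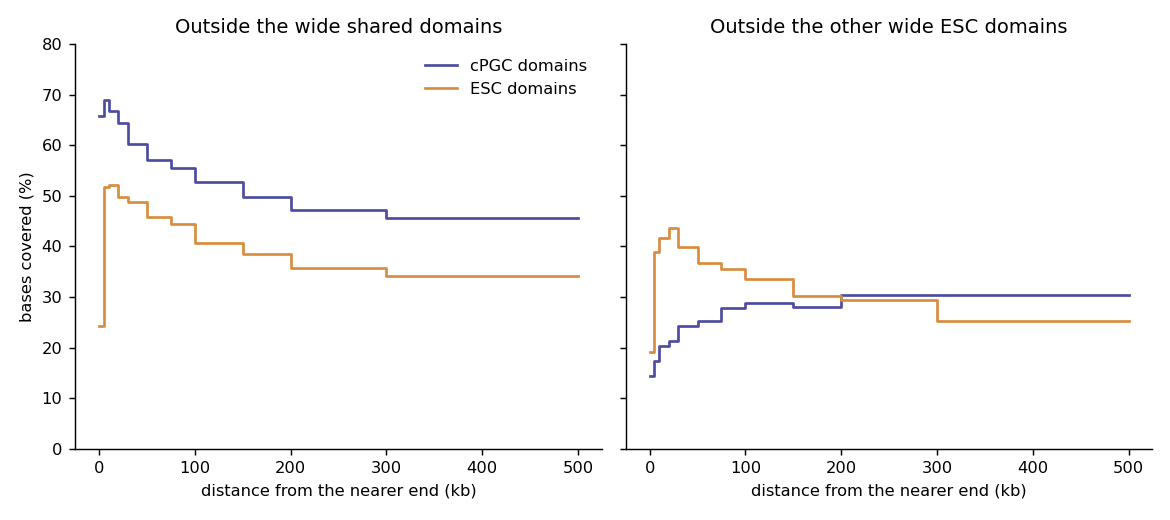
Share of bases in cPGC domains and in ESC domains (vertical axis, %) by distance from the nearest end (horizontal axis, kb), for wide shared domains on the left and other wide ESC domains on the right. Around wide shared domains the cPGC line stays above the ESC line at every distance. The cPGC list is also the larger one over all chromosomes, with 1.52 times the ESC bases. Around the other wide ESC domains the cPGC line lies below the ESC line out to 200 kb, at 19.2% against 38.1% within 30 kb. The sets were split on cPGC coverage, so the contrast near the ends follows in part from the choice.

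In cPGCs the domain over a wide shared domain often reached farther. A single cPGC domain contained 266 of the 802 whole (33.2%). Of these, 233 had cPGC bases past both ends and 33 past 1 end, and none had the same borders in both cell types. The median number of cPGC bases past the ends was 41550 bp in these 266 domains and 18600 bp over all 802 (quartiles 4200 and 45525 bp). The widest cPGC domain over a wide shared domain had a median width of 45000 bp, was wider than the ESC domain in 485 cases (60.5%) and at least 2 times as wide in 207 (25.8%).

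Counted by ends, extension in cPGCs was more frequent than shortening among the wide shared domains. The rule favours this, because it leaves out the 220 wide ESC domains with little cPGC coverage. Of those, 81 had no cPGC base at all. Over all chromosomes the cPGC list covered 1.52 times as many bases as the ESC list, and the part of this excess in the extension was not tested. Of 1604 ends, the cPGC domain ran past 1124 (70.1%), by a median of 13050 bp and at most 270600 bp. It stopped short of 397 ends (24.8%), by a median of 2100 bp and at most 38700 bp, and shared the border in 83 (5.17%). By domain, 407 (50.7%) were passed at both ends, 310 (38.7%) at 1 end and 85 (10.6%) at neither. Borders were close in part of the ends, 409 (25.5%) having a cPGC border within 1500 bp. Coverage was accordingly lower near the ends than inside: of 10 equal parts of each domain, the first lay 81.3% in cPGC domains, the fifth 93.1% and the last 84.0%.

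The cPGC domains that reached over a wide shared domain joined it to further ESC domains. In all, 1260 cPGC domains (5.45% of 23130) met a wide shared domain, with a median width of 23550 bp, against 9000 bp for all cPGC domains. Of the 771 cPGC domains of at least 50 kb, 287 (37.2%) did so. Meeting a wide interval favours wide cPGC domains, and the rule itself asks for cPGC coverage. Both comparisons thus follow in part from the choice. Under the cPGC domains of a wide shared domain lay a median of 1 other ESC domain and at most 15. For 267 wide shared domains (33.3%) there was none, the widest of all being among them, and for 60 (7.48%) there were 5 or more. A cPGC domain met 2 or more wide shared domains in 81 cases, so that 169 wide shared domains had a cPGC domain in common with another one.

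The farthest extension was on chromosome 9. There the cPGC domain 3763801 to 4064400 (300600 bp) met 5 wide shared domains and 13 ESC domains in all. ESC domains covered 85.2% of it. Wide shared domain 4034401 to 4069500 (35100 bp, 94.0% in cPGC domains) was met by this cPGC domain and by a second, 4066501 to 4142100 (75600 bp). They reached 270600 and 72600 bp past its ends, 343200 bp together. Under these cPGC domains lay 15 other ESC domains, the most of any. Its neighbours 3906301 to 3933900 (27600 bp) and 3765001 to 3793800 (28800 bp) lay whole in the first cPGC domain. It reached 273000 and 271800 bp past their ends.

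Splitting in cPGCs was frequent too. Of the 802, 422 (52.6%) were met by 1 cPGC domain, 261 (32.5%) by 2, 84 by 3, 26 by 4 and 9 by 5 or more, so that 380 (47.4%, interval 43.9 to 50.8%) were met by 2 or more. cPGC bases passed both ends of 174 of the 380 split domains and of 233 of the 422 met by 1 cPGC domain, so that extension was not more frequent among split domains. Split domains were 40.7% of those of 25 to 30 kb. They were 50.4%, 52.8% and 52.0% of the 3 wider classes (30 to 40 kb, 40 to 50 kb, and 50 kb or more). Among all wide ESC domains, the wide shared ones included, the same 4 classes gave 36.5%, 43.0%, 53.4% and 51.2%. Among ESC domains below 5 kb it was 0.430%. A longer interval has more room to meet several cPGC domains, and the part of width in these shares was not tested. The share of wide shared domains contained whole changed little across the 4 classes, with 35.0%, 31.8%, 32.5% and 32.4%.

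Most interruptions were short. The 549 cPGC-free gaps inside wide shared domains had a median of 2100 bp, and 182 (33.2%) measured 1800 bp, the smallest distance that separates cPGC domains anywhere in the list. In all, 405 gaps (73.8%) were 3000 bp or less and 20 (3.64%) were 10000 bp or more. In 255 of the 380 split domains (67.1%) every gap was 3000 bp or less. When domains up to 3000 bp apart were joined in both lists, 25.9% of the wide shared domains, then 1435, were met by 2 or more cPGC domains and 44.9% lay whole in 1. The count of split domains therefore depended on the distance at which domains were joined.

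The widest wide shared domains gave examples of both patterns. The widest ESC domain, on chromosome 1 (158262001 to 158464800, 202800 bp), was 97.2% in cPGC domains and was met by 4 of them, of 37800, 18000, 64200 and 80100 bp, separated by gaps of 2100, 1800 and 1800 bp. The cPGC list began at the same base there and ran 3000 bp past the other end. Near the end of chromosome 4 (91052401 to 91248900, 196500 bp), 98.8% lay in 2 cPGC domains of 12000 and 184800 bp with 1 gap of 2100 bp. In these 2 places the mark covered almost the same stretch in both lists.

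The next 3 by width were more broken in cPGCs. On chromosome 8 (25551901 to 25726800, 174900 bp) 71.5% of the ESC domain lay in 9 cPGC domains, the most over any wide shared domain, of which the widest measured 34500 bp and the gaps reached 11400 bp. On chromosome 5 (56709001 to 56828100, 119100 bp) 70.8% lay in 5 cPGC domains, and on chromosome 1 (83263201 to 83368500, 105300 bp) 64.1% lay in 4. None of the 3 had more than 1500 bp of cPGC domain past its ends. The gap of 22800 bp in the domain of chromosome 1 was the widest inside any wide shared domain.

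Further domains stood out by the number of pieces or the size of a gap. On chromosome 21 (1105501 to 1179300, 73800 bp, 76.0% in cPGC domains) and chromosome 1 (190099801 to 190136100, 36300 bp, 72.7%) 6 cPGC domains met the ESC domain. In the second of these the pieces were narrow, 1800 to 15600 bp, and all 5 gaps measured 2400 bp or less. The gap was 20700 bp wide in a domain of chromosome 2 (3469501 to 3543300, 73800 bp, 58.5%), which belongs to the run at the start of that chromosome. It was 19200 bp wide in a domain of chromosome 1 (19542601 to 19582500, 39900 bp, 51.9%).

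**Figure D5:**
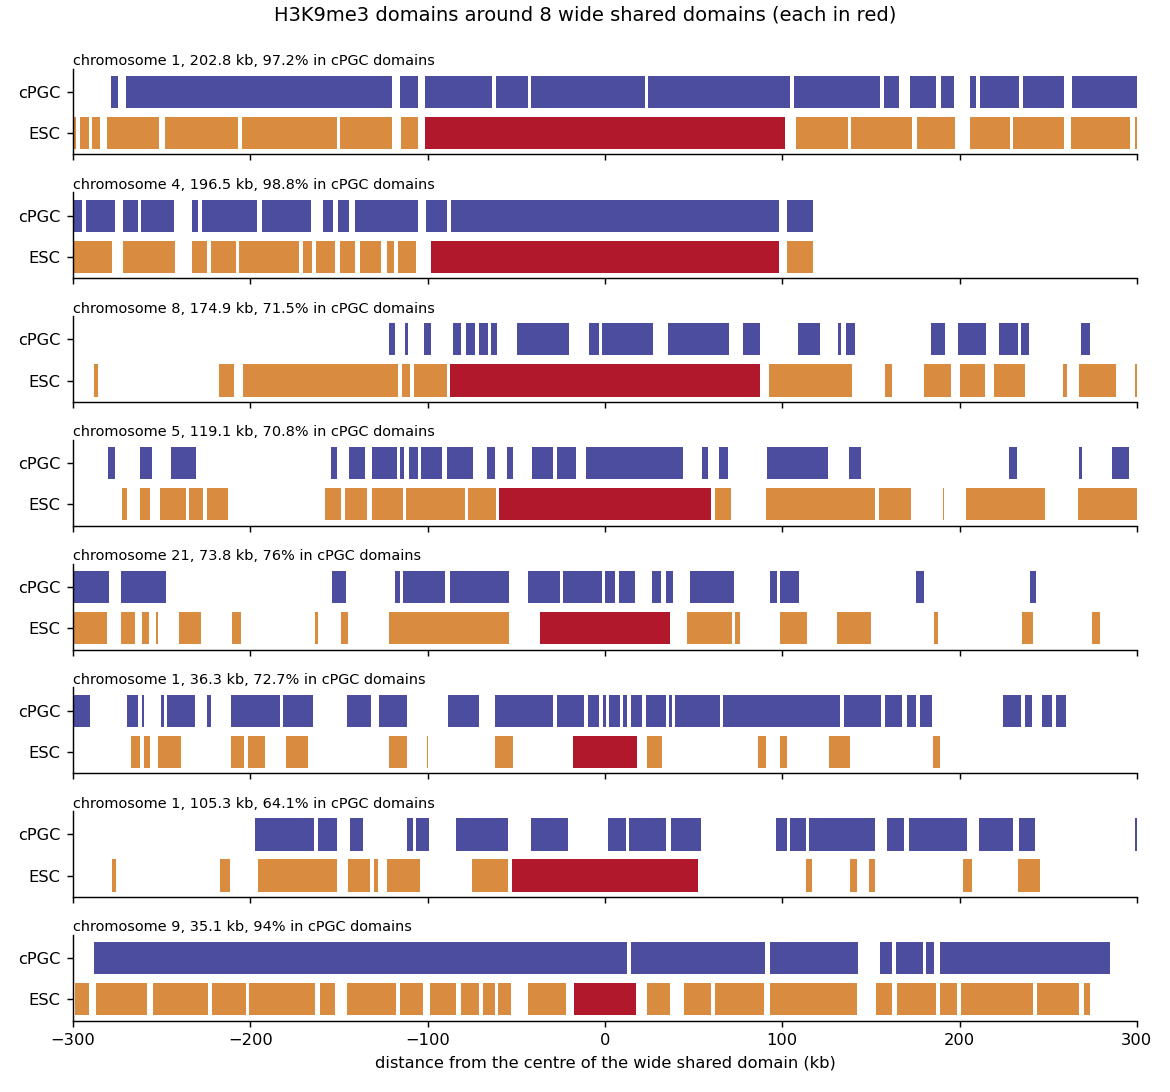
Maps of cPGC domains (upper track) and ESC domains (lower track) around 8 wide shared domains, each drawn in red and centred, with distance from its centre on the horizontal axis (kb). The first ESC domain, of 202800 bp, is met by 4 cPGC domains with gaps of 1800 to 2100 bp, the third, of 174900 bp, by 9 pieces, and the last, of 35100 bp on chromosome 9, lies for the most part under a cPGC domain of 300600 bp.

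Genes under the wide shared domains were read from the part of the study's annotation used here, 1999 loci on 28 chromosomes in the order of their identifiers, of which only 28 lay on chromosomes 1 to 3. It therefore says little about the chromosomes with most wide shared domains. Of these loci 58 (2.90%) were met by a wide shared domain, 36 (1.80%) lay at least 50% inside and 17 lay wholly inside. Wide shared domains made up 3.24% of the length considered, and 2.93% on chromosomes 4 to 33, so these counts show no excess of loci. From the side of the domains, 50 of the 802 (6.23%) met a given locus. The 36 loci had a median of 97.3% of their bases in cPGC domains, and 16 were fully covered in cPGCs. High coverage in both lists is largely built in, because these loci were chosen for lying in wide shared domains. Words for membrane proteins, receptors and channels stood in the descriptions of 7 of the 36 (19.4%), beside 13.2% of all 1999. These 7 include *LRIF1*, a nuclear factor that the word receptor picked. None of the 36 had a zinc finger, keratin or immune word of the lists, beside 40, 3 and 19 of all 1999 loci. With so few such loci nothing can be read from these zeros, and the immune words miss genes such as *ZAP70* and *CD79B*, which are among the 36.

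The membrane, adhesion and matrix genes named next were grouped by hand from the longest of these loci. Apart from the membrane words above, no background was counted for such a group. Others of the longest loci, among them *HYDIN*, *NECAB2*, *BSN* and *PRRX1*, lie outside it. *OPCML*, a cell adhesion molecule of neurons, was met by 3 wide shared domains on chromosome 24 and was 93.6% in cPGC domains and 71.7% in ESC domains. *CACNA1E*, a voltage-gated calcium channel subunit, lay 64.8% inside a domain of chromosome 8 (5719801 to 5769300) and had 92.2% of the locus in cPGC and 81.6% in ESC domains. *KCNT1*, a sodium-activated potassium channel on chromosome 17 (8694901 to 8722800), had 97.9% in cPGC and 93.1% in ESC domains. *COL6A3*, a chain of collagen VI, lay mostly in a domain of 78900 bp on chromosome 7 (4811401 to 4890300) and had 96.7% of its locus in cPGC and 93.2% in ESC domains. These genes are known for functions of differentiated tissue, but whether such genes are frequent under wide shared domains was not tested. Both lists covered most of each locus, which the choice of loci favours.

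Genes with known roles in epithelia varied in coverage. *PKP1*, a plakophilin of desmosomes, was covered at 100% in both cell types inside a domain of chromosome 26 (804901 to 851700, 46800 bp, 98.7% in cPGC domains). *LGR6*, a receptor for R-spondins on the same chromosome (437101 to 462300), and *FAT2*, an atypical cadherin on chromosome 13 (12970201 to 12995700 and 1 further domain), were 100% in cPGC domains and 91.9% and 93.6% in ESC domains. *ITGB4*, an integrin subunit of hemidesmosomes, was 84.0% in cPGC and 100% in ESC domains on chromosome 18 (4766101 to 4800000, 33900 bp). That domain, 60.2% in cPGC domains, also held *GALK1*, encoding galactokinase, with 14.1% in cPGC and 100% in ESC domains, the lowest cPGC value of the 36, for which it is named.

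Genes of neurons, cilia and lymphocytes were found too. *HYDIN*, which encodes a protein of motile cilia, was 95.2% in cPGC and 96.5% in ESC domains under a domain of 82200 bp on chromosome 11 (1625101 to 1707300). *BSN*, a presynaptic scaffold protein, had 75.6% in cPGC and 80.9% in ESC domains on chromosome 12 (2489401 to 2523600). *ZAP70*, a kinase of T cell receptor signalling, was fully covered in both on chromosome 28 (1806601 to 1863000, 56400 bp). *NECAB2*, an EF-hand calcium-binding protein of neurons, had 95.8% in cPGC and 74.8% in ESC domains on chromosome 11 (2591101 to 2620200), and *ASTN1*, which acts in the migration of neurons along glia, had 89.9% and 77.7% on chromosome 8. In the last pair cPGC coverage was the higher.

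Some loci were covered less in cPGCs than in ESCs. *PRRX1*, a homeobox factor of limb and skull mesenchyme, was 59.5% in cPGC and 94.5% in ESC domains on chromosome 8 (4838101 to 4878600, 74.1% of the domain in cPGC domains). *VWC2L*, a secreted protein with von Willebrand factor C domains, was 57.3% in cPGC and 94.2% in ESC domains on chromosome 7 (4155601 to 4197900, 61.0%). Likewise a locus described as complement factor H was 52.1% in cPGC and 65.9% in ESC domains on chromosome 8. In these 3 places the germ cell list left part of both the locus and the wide shared domain free.

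The remaining loci of the rule were shorter. *TSKU*, a secreted leucine-rich proteoglycan on chromosome 1 (193464901 to 193496100), and *C1QTNF12*, a secreted C1q and TNF related protein on chromosome 21, were covered at 92.3% and 81.4% in cPGCs and at 82.5% and 64.8% in ESCs. *SH3BP4*, an endocytic adaptor on chromosome 7 (5775301 to 5801700), was 98.1% in cPGC and 100% in ESC domains, although only 53.4% of its wide shared domain was in cPGC domains, so the part shared by both lists lay over the gene. A locus described as N-acylsphingosine amidohydrolase 2, a ceramidase, was 100% covered in both on chromosome 6 (9793801 to 9822600).

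Some wide shared domains held several loci, picked here after their values were seen. A domain of 57900 bp on chromosome 27 (1784101 to 1842000) lay whole in a cPGC domain and held *GH*, growth hormone, *CD79B*, a subunit of the B cell receptor, and a locus described as growth hormone releasing hormone receptor, each 100% covered in both cell types. *RDM1*, which encodes a RAD52-like protein, lay partly in the same domain and was 100% in cPGC and 74.5% in ESC domains. On chromosome 5 (1501201 to 1537200, 36000 bp, 88.3% in cPGC domains) *PKP3*, a further plakophilin, and *SIGIRR*, a negative regulator of interleukin receptor signalling, were fully covered in both. *ANO9*, of the anoctamin family, was 69.5% in cPGC and 66.4% in ESC domains there. On chromosome 26 (1058701 to 1089000) *LRIF1* and *CRY4*, a cryptochrome, were 82.2% and 92.8% in cPGC domains and each 100% in ESC domains.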

How the data were processed

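H3K9me3 chromatin immunoprecipitation and input libraries of cPGCs and ESCs (1 of each per cell type) underlie the lists. The authors aligned paired reads to galGal5 with Bowtie 2 and kept uniquely mapped proper pairs. They called broad peaks with MACS2 and islands of 300 bp windows with SICER. A SICER gap setting joins nearby windows, and domains of a list lie at least 1800 bp apart. Islands on autosomes were retained if they passed a strict false-discovery limit or were overlapped by a MACS2 peak. The versions of these tools are not given in the sources used here. The deposited values are domain starts and ends, with no other unit. Starts and ends were taken as counted from 0 with the end included, so both are printed 1 higher, and widths count both border bases. No depth is known, so no floor of detection is given.

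Overlaps, runs, flanks and displaced positions were computed with Python 3.11.15, numpy 2.4.6 and pandas 2.3.3, intervals with scipy 1.17.1 and figures with matplotlib 3.10.9. Positions displaced past the first base or the last domain of a chromosome were left out. On simulated intervals with known answers, the code passed 6 of 6 kinds of check. Gene names and positions came from the study's gene table, in the part used here, and its coverage and expression values were not used. The length of a chromosome was taken up to its last domain.

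Members, lists and tests were chosen with earlier results of these data known. The regions named are the 5 widest, the 3 with most cPGC bases past their ends, the 3 met by most cPGC domains, the 3 with the widest gap, 2 on each side of each limit, those with the most and the fewest other ESC domains, and the 3 largest runs; the genes are the 20 longest loci at least 50% inside wide shared domains. Genes outside this rule are named as such. Alternatives changed the limits, joined domains, left out narrow cPGC domains, and changed the overlap, link and displacement distances. A share was taken as moved when it left its 95% interval, and a count when it changed by over 1.5 times. For coverage at 1 Mb the interval (45.5 to 45.9%) counted windows of 300 bp as if independent. Small shifts of that value were therefore called moved.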

Additional observations from a re-analysis of the deposited data

How the results depend on the processing

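With 1 library per cell type, unknown depth and a caller that leaves at least 1800 bp between domains, the values describe 2 lists. Each alternative changes the set or the definition, and beyond that the cause was not tested. With ESC domains of at least 20000 bp there were 1359 wide shared domains in place of 802, their median share in cPGC domains was 93.0%, 43.5% were met by 2 or more cPGC domains, 86.4% had another within 500 kb, and 44.9% of their bases displaced by 1 Mb lay in cPGC domains. At 30000 bp there were 505, with 51.3% met by 2 or more and 72.1% with another within 500 kb. At a limit of 75% in cPGC domains, 66.1% of wide ESC domains met the rule, with a median share of 95.7%, 39.3% whole in 1 cPGC domain, 42.3% met by 2 or more, 57.2% passed at both ends, a median of 22950 bp past the ends and 47.1% at 1 Mb. Joining domains 3000 bp or less apart gave 1435 (75.7% of wide ESC domains), a median share of 97.9%, 44.9% whole, 25.9% met by 2 or more, a median of 30600 bp past the ends, 87.3% with another within 500 kb and 47.2% at 1 Mb. With cPGC domains of at least 5000 bp only, 42.7% were met by 2 or more, and 44.1% was covered at 1 Mb. Slack of 300 bp at each end gave 36.5% whole, overlaps of at least 3000 bp gave 41.6% met by 2 or more, and a reach of at least 3000 bp past each end gave 33.3% passed at both ends. Another wide shared domain lay within 250 kb of 68.3% and within 1 Mb of 88.7%, and coverage was 45.0% at 500 kb and 41.9% at 2 Mb. Leaving out the 2 largest runs, chosen after seeing the data, gave 50.3% on chromosomes 1 to 3 and 41.7% at 1 Mb. The other 25 recomputed values stayed within those limits. No paired analysis was possible because each cell type has 1 library and no test was made.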
